A study of Homo sapiens with 6 samples.

Results

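The Tribbles family of human genes, TRIB1, TRIB2 and TRIB3, was measured by RNA sequencing in the cell line HEK293A, a strongly attached form of human embryonic kidney HEK293 cells. Its 3 members were taken by symbol from the 60676 Ensembl gene IDs of the count tables, and all 3 were abundant enough to test. One group of 3 libraries came from cells given 20 nM VT01454, named only by this code, for 2 h, and the other 3 from cells given the DMSO vehicle for the same time. No genotype, transgene or further agent is given for either group, and separate cultures are not stated for the 3 libraries of a group, so the spread behind each p-value may be technical. The study as titled concerns Hippo signalling and its control by phosphoinositides and the proteins that transfer phosphatidylinositol. Comparing compound with vehicle here asks whether the 3 Tribbles transcripts responded alike.

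Tribbles proteins are pseudokinases: they keep the fold of a kinase but have little or no catalytic activity, and they act as scaffolds. A tail motif recruits the ubiquitin ligase COP1, and the pseudokinase domain presents a client to it, the best known being the transcription factor C/EBP-alpha for TRIB1 and TRIB2. The family also binds MAP kinase kinases and AKT. In other cells TRIB1 has been described as a short-lived mRNA that responds to growth signals, TRIB2 as a repressor of FOXO3, and TRIB3 as a gene induced by ATF4 and its partner CHOP under amino acid shortage or endoplasmic reticulum stress.

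Total counts ran from 24646466 to 28880374 in VT01454 libraries and from 19126039 to 26879796 in vehicle libraries. Vehicle libraries differed more among themselves than VT01454 libraries did, with a chi-square per degree of freedom of 7.16 to 17.9 between vehicle pairs and 1.99 to 2.66 between VT01454 pairs. Vehicle library 2 stood farthest from all others (8.26 to 17.9 against the other vehicle libraries, 14.6 to 16.3 against VT01454 libraries). No 2 libraries agreed within sampling noise. Calls over all genes depended on the libraries used: 1170 genes were called higher and 636 lower without vehicle library 3, against 73 to 93 higher and 20 to 43 lower without vehicle library 1 or any single VT01454 library. Without vehicle library 2 the counts were 255 higher and 159 lower. Of 8 embryonic kidney, neurofilament and epithelial markers reported in HEK293 cells, 6 averaged 1 CPM or more in both groups and PAX2 and LHX1 averaged less. CPM are counts per 1000000 on library sizes scaled by TMM factors. Of 5 leukocyte markers none reached 1 CPM, and PTPRC and CD3E were at 0 in every library. Of 5 squamous and cervical markers KRT5, KRT14 and TP63 were under 1 CPM, while SFN averaged 3.21 CPM with VT01454 and 4.24 CPM with vehicle and CDKN2A 233 CPM with VT01454 and 243 CPM with vehicle. Of 5 fibroblast and endothelial markers DCN and PECAM1 were under 1 CPM, while COL1A1 averaged 19.3 CPM with VT01454 and 21.8 CPM with vehicle, COL3A1 4.12 CPM with VT01454 and 3.84 CPM with vehicle, and VWF 1.43 CPM with VT01454 and 2.01 CPM with vehicle. In bulk RNA, a change in RNA per cell and a change in the share of cells that carry it cannot be told apart.

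The start-site windows of TRIB2 and TRIB3 are shown. No window was available for TRIB1, the member that rose, so its start region was not analysed here. The shown windows were both rich in GC and differed in matches to motifs of factors named below. Both windows run from 250 bases before to 50 bases after a RefSeq start site on the plus strand (GRCh38.p14), TRIB2 at chr2:12716686-12716985 and the first of 3 TRIB3 windows at chr20:381045-381344. Capitals mark matches to the EGR motif.
TRIB2: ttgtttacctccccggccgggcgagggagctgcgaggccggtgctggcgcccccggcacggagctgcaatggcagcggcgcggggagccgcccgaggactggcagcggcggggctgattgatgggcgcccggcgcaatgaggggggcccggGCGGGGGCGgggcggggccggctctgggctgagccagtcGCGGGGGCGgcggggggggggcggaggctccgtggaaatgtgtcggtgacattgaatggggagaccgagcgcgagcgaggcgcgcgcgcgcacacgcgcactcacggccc
TRIB3: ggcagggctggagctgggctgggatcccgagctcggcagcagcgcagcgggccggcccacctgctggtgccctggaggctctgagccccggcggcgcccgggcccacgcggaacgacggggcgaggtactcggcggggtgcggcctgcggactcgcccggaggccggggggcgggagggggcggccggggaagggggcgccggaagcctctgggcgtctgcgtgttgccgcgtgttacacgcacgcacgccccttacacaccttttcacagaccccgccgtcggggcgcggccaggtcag
GC content was 77.3% in the TRIB2 window and 77% in this TRIB3 window, against a median of 58.7% over 35116 windows. Motifs were searched on both strands as GCGNGGGCG (EGR), TGATGNAA (the core of C/EBP-ATF elements), TGACGTCA (CRE), TGANTCA (AP-1) and the CArG box of SRF. The TRIB2 window held 2 EGR matches, starting at −99 and −60 from the start site, neither of which overlapped another motif searched. Over all genes, 11.2% had a window with the EGR motif, 4.46% with the C/EBP-ATF core, 2.25% with the CRE, 9.37% with AP-1 and 1.6% with the CArG box. These shares are not matched for GC content, which was 77.7% at the 95th percentile of windows, so they are no background for windows this rich in GC. None of the 3 TRIB3 windows held any of the 5 motifs, and the TRIB2 window held only the EGR motif among them, which says only that these letters are not in these windows.

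TRIB1 rose after 2 h with VT01454, while TRIB2 and TRIB3 did not pass the test. The rise of TRIB1 was 1.74-fold (95% interval 1.59 to 1.92), and the intervals of TRIB2 and TRIB3 ended at 1.11-fold and 1.18-fold, below the lower end of that of TRIB1. Thus 1 of 3 members was called at an adjusted p below 0.05, where 1.89% of all 15577 tested genes were called, 1.27% higher and 0.616% lower.

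**Figure D1:**
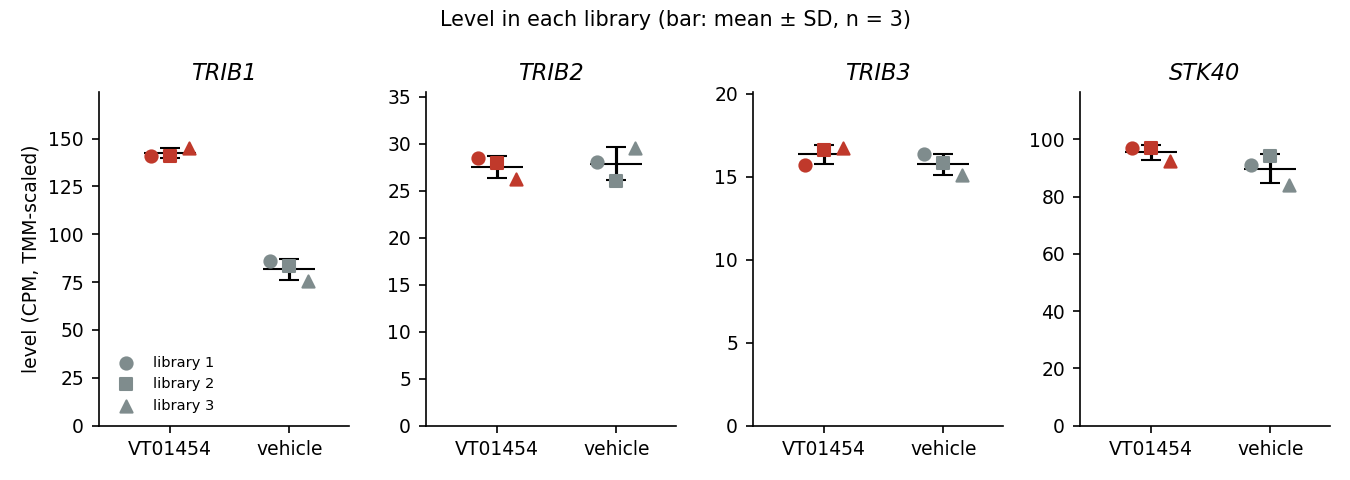
Level (CPM, linear axis from 0) of TRIB1, TRIB2, TRIB3 and the related pseudokinase gene STK40 in each library, VT01454 left and vehicle right; symbols mark libraries 1 to 3, the bar the mean and the whiskers 1 SD (n = 3). All VT01454 libraries lie above all vehicle libraries for TRIB1 (141 to 145 against 75.5 to 86.1 CPM), and the groups overlap for the other genes.

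TRIB1 (ENSG00000173334), an adaptor between COP1 and C/EBP-alpha, lies on chromosome 8 (125430321 to 125438405, plus strand, GENCODE 29 on GRCh38). It had 4014, 3502 and 3555 counts in VT01454 libraries 1 to 3, against 1825, 1597 and 2046 counts in vehicle libraries 1 to 3. On the scaled basis this was 141, 141 and 145 CPM with VT01454 and 86.1, 83.3 and 75.5 CPM with vehicle. The lowest VT01454 library stood well above the highest vehicle library, and vehicle library 3 was the lowest of the 6. The means were 142 ± 2.62 CPM with VT01454 and 81.7 ± 5.49 CPM with vehicle (SD, n = 3 each), and the log2 fold change was 0.80 ± 0.06 (SE, adjusted p = 1.58e-05, edgeR quasi-likelihood test). Among the 198 genes called higher TRIB1 ranked 31 by fold change and 13 by p-value. Complete separation of the groups is common in these libraries: in 11.3% of tested genes all VT01454 libraries lay above all vehicle libraries, and in 9.84% all lay below.

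The TRIB1 response held when any single library was left out, with log2 fold changes from 0.75 without vehicle library 3 to 0.84 without vehicle library 1 and 0.82 without vehicle library 2. The adjusted p was at most 0.00105 over all 13 alternatives. Replicate scatter of TRIB1 was close to counting noise among VT01454 libraries and above it among vehicle libraries. The coefficient of variation of its CPM was 1.84% among VT01454 libraries and 6.72% among vehicle libraries, where counting alone at these depths gives 1.65% and 2.34%.

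TRIB2 (ENSG00000071575, chromosome 2, 12716889 to 12742734, plus strand), the other C/EBP-alpha adaptor and a driver of acute myeloid leukaemia in mice, stayed within the range of its vehicle libraries. It had 812, 695 and 642 counts with VT01454, against 594, 500 and 802 counts with vehicle. In CPM the 3 VT01454 libraries gave 28.5, 27.9 and 26.2 and the 3 vehicle libraries 28, 26.1 and 29.6. Every VT01454 value fell between the lowest and the highest vehicle value, and vehicle library 3 was the highest of the 6 for this gene. The means were 27.6 ± 1.17 CPM with VT01454 and 27.9 ± 1.76 CPM with vehicle (SD, n = 3 each). The log2 fold change of −0.020 ± 0.08 had an adjusted p = 0.927 and a 95% interval from −0.19 to 0.15.

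TRIB3 (ENSG00000101255, chromosome 20, 362835 to 397559, plus strand), known for binding AKT and for its induction by ATF4, was the least abundant member and also did not pass. It had 447, 414 and 410 counts with VT01454, against 347, 303 and 409 counts with vehicle. Scaled levels were 15.7, 16.6 and 16.8 CPM with VT01454 and 16.4, 15.8 and 15.1 CPM with vehicle, so the groups overlapped. The means of 16.4 ± 0.585 CPM with VT01454 and 15.8 ± 0.638 CPM with vehicle (SD, n = 3 each) gave a log2 fold change of 0.054 ± 0.08 (adjusted p = 0.801, 95% interval −0.13 to 0.24). Its coefficients of variation, 3.58% with VT01454 and 4.05% with vehicle, were below the 4.86% and 5.32% that counting alone gives on average.

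STK40, a pseudokinase gene related to the Tribbles family whose product also binds COP1, was read beside the members. Its level was 97.1, 96.8 and 92.4 CPM with VT01454 and 91.1, 94.1 and 84.1 CPM with vehicle. These levels overlapped between the groups, and the log2 fold change of 0.089 ± 0.06 did not pass (adjusted p = 0.544).

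**Figure D2:**
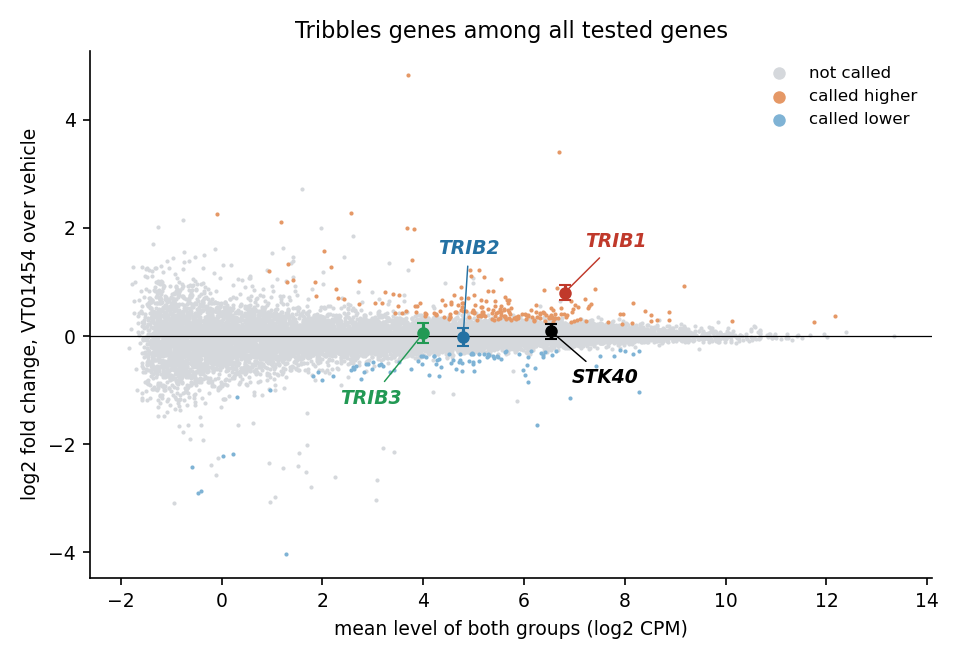
Log2 fold change of VT01454 over vehicle against the mean level of both groups (log2 CPM) for all 15577 tested genes, with genes called higher or lower in colour; the Tribbles genes and STK40 carry 95% intervals. TRIB1 lies among the genes called higher at 0.80, and TRIB2, TRIB3 and STK40 lie near 0.

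Whether members responded unequally was tested on their ratio within each library, which needs no scaling between libraries. The log2 ratio of TRIB1 to TRIB2 counts was 2.37 ± 0.09 with VT01454 and 1.55 ± 0.17 with vehicle (SD, n = 3 each), a difference of 0.82 ± 0.11 (SE). That of TRIB1 to TRIB3 was 3.12 ± 0.04 with VT01454 and 2.37 ± 0.04 with vehicle, a difference of 0.75 ± 0.04 (SE). For both ratios all VT01454 libraries lay above all vehicle libraries, which gives the smallest p that 3 against 3 libraries allow (exact two-sided permutation p = 0.1, adjusted over the 3 ratios 0.15). The design can therefore not bring this test below 0.05. For TRIB2 to TRIB3 the log2 ratio was 0.75 ± 0.11 with VT01454 and 0.82 ± 0.13 with vehicle, the groups overlapped, and the difference was −0.071 ± 0.10 (exact permutation p = 0.6, adjusted 0.6). Leaving out any single library gave differences of 0.72 to 0.88 for TRIB1 to TRIB2 and 0.72 to 0.77 for TRIB1 to TRIB3.

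Levels of different genes were compared per base of exonic length, as TPM (transcripts per 1000000). TRIB1 was the most abundant member in every library, with 147 ± 3.24 TPM with VT01454 and 84.1 ± 4.84 TPM with vehicle (SD, n = 3 each). TRIB2 followed with 25.7 ± 0.989 TPM with VT01454 and 26 ± 2.56 TPM with vehicle. TRIB3 came last with 20.4 ± 0.858 TPM with VT01454 and 19.6 ± 0.851 TPM with vehicle. TRIB2 lay above TRIB3 in every library on this scale as well, most narrowly with 24.5 TPM of TRIB2 and 20.9 TPM of TRIB3 in VT01454 library 3. The mean TPM of TRIB1 exceeded that of 91.2% of tested genes with VT01454 and 83.9% with vehicle, while TRIB3 exceeded 54.0% with VT01454 and 53.3% with vehicle.

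Summed over the 3 members, the family stood at 193 ± 2.98 TPM with VT01454 and 130 ± 6.01 TPM with vehicle. TRIB1 supplied 76.1% ± 0.594 of that sum with VT01454 and 64.9% ± 1.87 with vehicle. The share of TRIB2 was 13.3% ± 0.705 with VT01454 and 20.0% ± 1.87 with vehicle, and that of TRIB3 10.5% ± 0.314 with VT01454 and 15.1% ± 0.0433 with vehicle. These 2 shares were lower while the TPM of both genes overlapped between the groups.

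**Figure D3:**
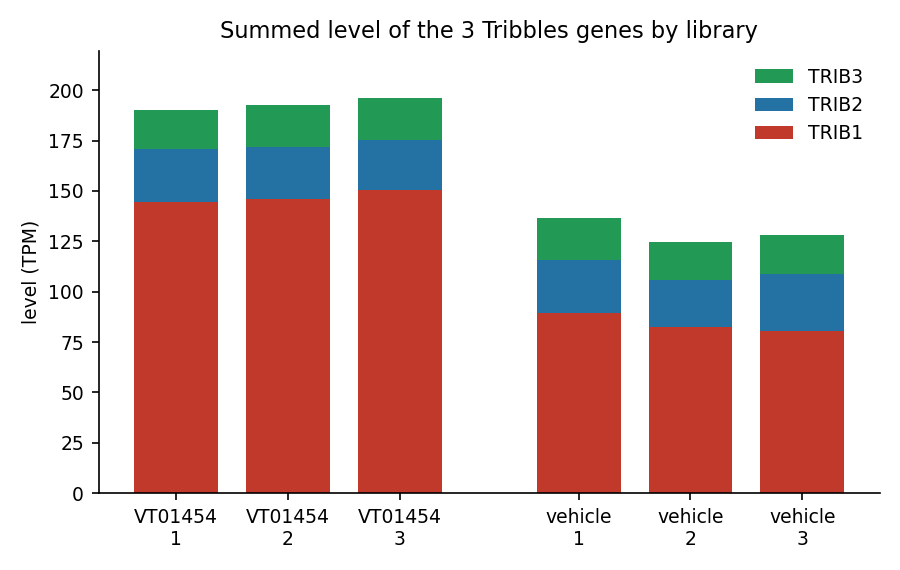
Level in TPM (linear axis from 0) of TRIB1, TRIB2 and TRIB3 stacked for each library, VT01454 libraries left and vehicle libraries right. The stacks reach 190 to 196 TPM with VT01454 and 125 to 136 TPM with vehicle, and the segments of TRIB2 and TRIB3 keep a similar height.

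The members share limited sequence. Aligned over their longest coding sequences, TRIB1 and TRIB2 were identical at 68.1% of bases, TRIB2 and TRIB3 at 66.6% and TRIB1 and TRIB3 at 64.5%. The longest exact run shared by any of their annotated transcripts was 20 bases, between TRIB1 and TRIB2. Only 1 annotated gene overlapped a member, MIR3125 inside TRIB2 on the same strand, which had 1 count in all VT01454 libraries together and 0 in all vehicle libraries together. The 3′ untranslated regions also differed among members. The longest annotated one held 1 ATTTA pentamer in TRIB1, 6 in TRIB2 and 0 in TRIB3, against a median of 2 over 19164 genes. Their lengths were 1934, 1940 and 869 bases, against a median of 1103. Per kb the pentamers came to 0.517, 3.09 and 0, against a median of 1.48. None held the AU-rich nonamer found in 19% of genes. ATTTA is the core of the AU-rich elements that mark many short-lived mRNAs.

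Genes flanking the members were read beside them. Of the 12 nearest annotated genes, 2 on each side of each member, 5 were abundant enough to test, 1 beside TRIB1 and 4 beside TRIB3. None was called, where 1.89% of all tested genes were, so a count of 0 among 5 lies near that background. NSMCE2, a SUMO ligase gene 63201 bases below TRIB1, averaged 32.6 ± 0.608 CPM with VT01454 and 32 ± 5.11 CPM with vehicle (SD, n = 3 each), with a log2 fold change of 0.028 ± 0.10 (adjusted p = 0.921). Beside TRIB3, log2 fold changes were −0.068 ± 0.07 for NRSN2, −0.14 ± 0.08 for RBCK1, a subunit of the linear ubiquitin ligase, −0.18 ± 0.07 for the RAB GTPase-activating protein gene TBC1D20 and 0.14 ± 0.24 for the antisense transcript NRSN2-AS1 (adjusted p = 0.699, 0.411, 0.258 and 0.817). The other 7, among them all 4 around TRIB2, had at most 3 counts in a group.

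Among 12978 genes of at least 1 CPM, those most like each member were picked by Pearson correlation of log2 CPM over the 6 libraries. For TRIB1 they were TUFT1 (r = 0.998), IER2, DUSP5, FOS and SRF (r = 0.997 each), all of which were called higher with VT01454. IER2 and FOS are immediate early genes, DUSP5 encodes a phosphatase of nuclear ERK, and SRF encodes serum response factor. TUFT1, whose product tuftelin was first described in tooth enamel, averaged 49.7 CPM with VT01454 and 28.1 CPM with vehicle, a log2 fold change of 0.82 ± 0.08 (adjusted p = 5.61e-05) close to that of TRIB1. For TRIB2 the most alike were NTN3, ZNF611, KLLN, TRIM25 and PHLDB1 (r = 0.982 to 0.994), and for TRIB3 SEMA6C, LINC00674, HOXD13, COL3A1 and COL4A2 (r = 0.965 to 0.997). None of these 10 was called, where 1.89% of all tested genes were. Each set was picked for following its member, so whether its genes were called follows largely from that choice. A gene that differs between the groups correlates with every other such gene, so these values describe 6 libraries and nothing beyond them.

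No tested mRNA of the ubiquitin ligase that Tribbles proteins recruit was called. This covers 7 of 8 listed genes, DET1 being too low to test, and a count of 0 among 7 lies near the 1.89% called over all genes. Their log2 fold changes ran from −0.10 to 0.15 with a median of 0.035, against a median of −0.0073 over all tested genes. COP1 itself averaged 43.6 ± 2.71 CPM with VT01454 and 42.3 ± 1.59 CPM with vehicle (log2 fold change 0.043 ± 0.07, adjusted p = 0.816). The cullin gene CUL4B had the smallest p of the list, at 0.15 ± 0.07 (adjusted p = 0.320), and was called higher without vehicle library 3 (0.22, adjusted p = 0.0104). Log2 fold changes were 0.047 ± 0.06 for the other cullin gene CUL4A, −0.10 ± 0.07 for the ligase component gene DDA1 and −0.079 ± 0.09 for the RING protein gene RBX1.

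Among genes for Tribbles clients and binding partners, 1 of 15 tested was called higher and none lower, where 1.27% of all tested genes were called higher and 0.616% lower. The median log2 fold change was 0.023. The member that rose was FOXO3, a transcription factor held back by AKT and by TRIB2, with 131 ± 3.97 CPM with VT01454 and 99.6 ± 13.8 CPM with vehicle (0.39 ± 0.09, adjusted p = 0.0412). That call was lost without vehicle library 1 or any single VT01454 library (adjusted p up to 0.231), and with limma-voom or library totals alone. Without vehicle library 3, 2 genes of the list were called higher. CEBPA averaged 6.87 ± 0.498 CPM with VT01454 and 7.59 ± 2.31 CPM with vehicle, and CEBPB 19.7 ± 1.48 CPM with VT01454 and 17.1 ± 3.94 CPM with vehicle; neither passed (adjusted p = 0.786 and 0.530). MAP2K1, which encodes the kinase MEK1, stood at a log2 fold change of 0.023 ± 0.07, AKT1 at −0.062 ± 0.06 and AKT2 at −0.044 ± 0.05 (adjusted p = 0.903, 0.651 and 0.749).

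The list for the integrated stress response held ATF4, the transcription factor that induces TRIB3, its targets and the kinases upstream of it. Of 42 listed genes 40 were tested: 2 were called higher (1.27% over all genes), none lower, 20 lay above 0, and the median log2 fold change was −0.0016. The 2 that rose were ATF3, a stress and immediate early factor, at 0.58 ± 0.06 (adjusted p = 2.51e-04), and PPP1R15A, which encodes the GADD34 subunit that reverses eIF2-alpha phosphorylation, at 0.29 ± 0.06 (adjusted p = 0.0255). The PPP1R15A call did not hold when vehicle library 1 or 1 of the VT01454 libraries was left out (adjusted p up to 0.177). ATF3 was called in all 13 alternatives. Without vehicle library 3, 6 genes of the list were called higher and 1 lower, and without vehicle library 2, 3 were called higher. ATF4 averaged 599 ± 19.2 CPM with VT01454 and 539 ± 44.0 CPM with vehicle (0.15 ± 0.06, adjusted p = 0.294, but 0.22 and 0.00566 without vehicle library 2), and DDIT3, the CHOP gene, 4.24 ± 0.362 CPM with VT01454 and 4.42 ± 0.660 CPM with vehicle (−0.052 ± 0.16, adjusted p = 0.905). Among other ATF4 targets that were not called, the cystine transporter gene SLC7A11 had a log2 fold change of 0.32 ± 0.10 and STC2 of 0.19 ± 0.06 (adjusted p = 0.151 and 0.201). In both all VT01454 libraries lay above all vehicle libraries, and both were called without vehicle library 3. Over the list, 5 of 40 tested genes were wholly above in this way and 2 wholly below, where 11.3% and 9.84% of all tested genes were. JDP2 went the other way, with a log2 fold change of −0.49 ± 0.19 (adjusted p = 0.258) and all VT01454 libraries below all vehicle libraries. Log2 fold changes over the list ran from −0.89 to 0.58. The values of CHAC1, SESN2 and PSAT1 were −0.28 ± 0.19, −0.082 ± 0.07 and 0.023 ± 0.05. EIF2AK3, the gene of the kinase PERK, was closest to a call, at 0.38 ± 0.09 (adjusted p = 0.0553), and was called without vehicle library 3 (adjusted p = 0.0223).

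Genes transcribed through SRF and ERK signalling, the class in which TRIB1 is often placed, were called higher in 28 of 36 tested cases and lower in none, where 1.27% of all tested genes were called higher. They had a median log2 fold change of 0.68, and the 0.80 of TRIB1 stood just above that median. The ETS and SRF targets EGR3 and EGR1 led with 4.83 ± 0.19 and 3.39 ± 0.18 (adjusted p = 3.97e-08 and 1.09e-04), and JUN, an AP-1 subunit gene, stood at 0.92 ± 0.06 (adjusted p = 1.71e-06). SRF rose as well, with 194 CPM with VT01454 and 129 CPM with vehicle (0.59 ± 0.06, adjusted p = 1.95e-04). The 8 others did not pass, among them MYC at 0.13 ± 0.06 and DUSP6, an ERK phosphatase gene, at 0.21 ± 0.20. Of the 36 genes, 33 lay above 0. HBEGF, PHLDA1 and IER5 lay below it, at −0.17 ± 0.10, −0.095 ± 0.16 and −0.082 ± 0.09. For HBEGF all VT01454 libraries lay below all vehicle libraries (adjusted p = 0.442). Over the list, 32 of 36 tested genes were wholly above and 1 wholly below, where 11.3% and 9.84% of all tested genes were. The list was drawn up with results of these data known, so its direction is a description.

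FOXO targets, read because TRIB2 and AKT act on FOXO factors, were called higher in 3 of 20 tested cases (1.27% over all genes) and lower in none, with 16 above 0 and a median log2 fold change of 0.30. IRS2, an insulin receptor adaptor gene, stood at 0.46 ± 0.05 (adjusted p = 3.03e-04), the ubiquitin ligase gene FBXO32 at 0.44 ± 0.09 (adjusted p = 0.0205) and the cyclin gene CCNG2 at 0.42 ± 0.08 (adjusted p = 0.0166). Of these IRS2 kept the call without any single library. FBXO32 lost it without vehicle library 1 or any single VT01454 library (adjusted p up to 0.147), and CCNG2 without vehicle library 1 or VT01454 library 2 or 3 (up to 0.134). FOXO1 and FOXO4, also on the list, stood at 0.20 ± 0.07 and −0.026 ± 0.08 (adjusted p = 0.206 and 0.911). In 11 of the 20 tested genes all VT01454 libraries lay above all vehicle libraries, where 11.3% of all tested genes did. In 0 of the 20 all lay below, where 9.84% of all tested genes did. The number of FOXO targets called higher was 11 without vehicle library 3, 4 without vehicle library 2, 2 without VT01454 library 1, and 1 when VT01454 library 2, VT01454 library 3 or vehicle library 1 was left out. With all libraries it was 7 by DESeq2, 8 with the replicate block and 11 with no count filter.

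**Figure D4:**
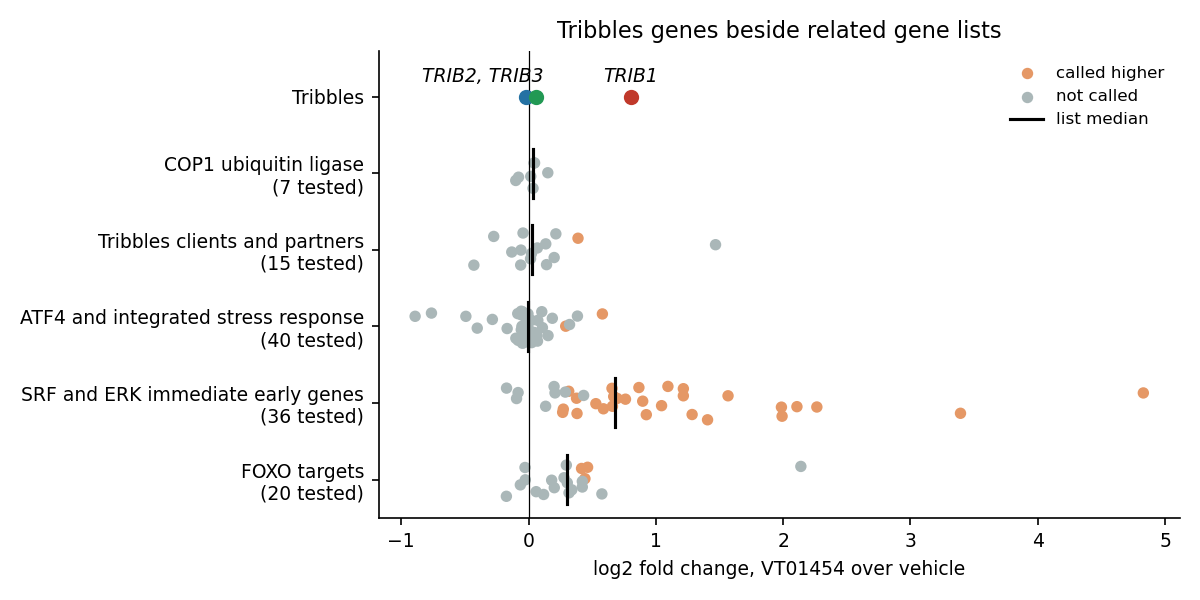
Log2 fold change of VT01454 over vehicle for the Tribbles genes (top) and for each tested gene of 5 related lists; orange points were called higher, grey points not called, and the black line is the list median. TRIB1 at 0.80 stands near the median of the SRF and ERK list (0.68). TRIB2 and TRIB3 stand near 0, as do the medians of the ATF4 list (−0.0016), the COP1 list (0.035), the clients list (0.023) and all tested genes (−0.0073).

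**Figure D5:**
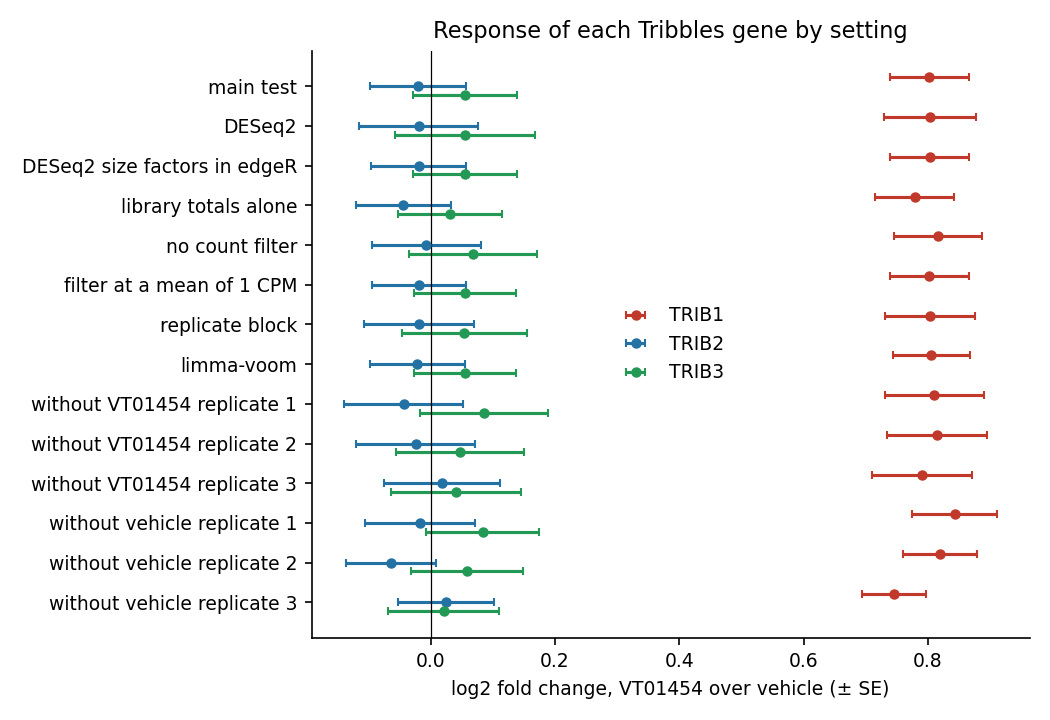
Log2 fold change (± SE) of TRIB1, TRIB2 and TRIB3 under the main test and each alternative, the last 6 each leaving out 1 library. TRIB1 stays between 0.75 and 0.84, TRIB3 between 0.021 and 0.086, and TRIB2 lies on either side of 0 (−0.064 to 0.024).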

How the data were processed

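The deposited values are whole-number read counts for each Ensembl gene ID, 1 table for each of 6 libraries, not normalized. HISAT2 2.2.1, HTSeq 0.9.1 and the build hg38 are named in the submitters' processing notes. Not given in the sources used here: annotation release, strand setting and treatment of multiply aligned reads. Symbols were matched to 60357 of 60676 IDs, and coordinates, exonic and coding lengths came from GENCODE 29 (58503 IDs). Promoter windows are from RefSeq (GRCh38.p14).

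Genes kept by filterByExpr were fitted with edgeR 4.0.16 in R 4.3.3 (TMM factors, robust quasi-likelihood F-test, two-sided, VT01454 against vehicle), with Benjamini-Hochberg adjustment over all 15577 tested genes and calls below 0.05. SE values equal the log2 fold change over root F, and intervals use the fit's degrees of freedom. 1 count was worth 0.0346 to 0.0523 CPM. TPM use exonic length. Alternatives were DESeq2 1.42.0, its size factors, library totals alone, no filter, a filter at 1 CPM, a block for the replicate number, leaving out each library, and voom from limma 3.58.1. The fit was tested on simulated counts, where it missed part of the seeded changes, more of them at smaller folds. That was a single simulated set with the same scatter per gene in both groups, unlike the libraries here. False calls in it made up a larger share of the calls than the threshold of 0.05 allows. A gene not called may therefore still have changed, and a call near the threshold is weak. SOD2 was listed but not matched.

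The members and lists were chosen with earlier results of these data known. Named genes are the members, STK40, their neighbours, the 5 most alike genes each, called list members, those with the smallest p in a list and fixed partner genes. CHAC1, SESN2, PSAT1, AKT1, AKT2, FOXO1, FOXO4, MYC, DUSP6, HBEGF, PHLDA1 and IER5 were chosen after their values were seen. So were the comparisons of coding sequence and 3′ untranslated regions.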

Additional observations from a re-analysis of the deposited data

How the results depend on the processing

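The TRIB1 rise kept its direction and call in all 13 alternatives (log2 fold change 0.75 to 0.84), and TRIB2 and TRIB3 passed in none. TRIB2 changed sign without VT01454 library 3 and without vehicle library 3; its range over single omissions was −0.064 to 0.024. Counts over all genes moved more: leaving out 1 library gave 73 to 1170 genes higher and 20 to 636 lower, the most without vehicle library 3, and no filter gave 508 higher and 205 lower, against 198 and 96. The cause was not tested. With coding in place of exonic length, TRIB1 over TRIB3 per base was 9.01 with VT01454 and 5.36 with vehicle (7.22 with VT01454 and 4.30 with vehicle by exonic length), and TRIB2 over TRIB3 was 1.59 with VT01454 and 1.68 with vehicle (1.26 with VT01454 and 1.33 with vehicle by exonic length). Members of the ATF4 list called higher ranged from 1 to 6, of the FOXO list from 1 to 11 and of the SRF and ERK list from 24 to 29. Replicate numbers did not pair the libraries (correlation of deviations −0.072 to 0.0025 over 3 pairs); the replicate block gave 232 higher and 107 lower, TRIB1 at 0.80, TRIB2 at −0.019, TRIB3 at 0.054, and 8 FOXO targets higher.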

Other observations

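ACACA, the gene of the lipid enzyme acetyl-CoA carboxylase that TRIB3 brings to COP1, varied widely between libraries of 1 group and was picked out after its values were seen. It had 5.19, 5.30 and 11.5 CPM in VT01454 libraries 1 to 3 and 13.5, 5.64 and 10.2 CPM in vehicle libraries 1 to 3. The groups overlapped, and the gene did not pass the test (adjusted p = 0.734).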
